A study of Mus musculus with 6 samples.

Results

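Intergenic stretches of open chromatin that were called as ATAC-seq peaks in mouse definitive endoderm holding the transcription factor OTX2, and not called after OTX2 had been degraded, are described here. A peak of the authors' table of all peaks was included when it overlapped a peak of the pooled DMSO list by at least 1 base, overlapped no peak of the pooled dTAG13 list, and was annotated by the authors as distal intergenic. This rule selected 10763 of 70494 peaks (15.3%), 48.9% of the 22014 distal intergenic peaks and 38.1% of the 28237 peaks found in the DMSO list alone. They are called DMSO-only intergenic peaks below. The remaining distal intergenic peaks were 8381 peaks overlapping both lists and 2870 overlapping the dTAG13 list alone (dTAG13-only), and 9251 intronic peaks overlapped the DMSO list alone. Because the peaks were selected on the libraries that also give the fold changes, their fold changes and calls are a description. Genome sequence and base composition did not enter the rule. Position relative to genes did, through the distal intergenic annotation, so distances to start sites are in part set by it.

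The cells were definitive endoderm differentiated from epiblast stem cells of the 7H line, of BL6/129 hybrid background, in which OTX2 carries a degradation tag and EGFP. All 6 libraries came from this tagged line, and no untagged line enters the comparison. Differentiation used 40 ng/ml Activin A and 3 uM CHIR for 16 h, then 100 ng/ml Activin A and 100 nM LDN for 24 h, and either dTAG13, which targets the tagged protein for degradation, or its solvent DMSO was added at the primitive streak stage for 24 h. The 3 libraries of each treatment were made from 50000 sorted live cells each and are technical replicates per the series' design text, so standard errors reflect repeated libraries and need not hold the spread between cultures. The files used here hold 1 mean per peak over the 6 libraries and no value per library, so library depth is unknown and the loss of OTX2 protein is not measured. Accessibility peaks were present at 22 of 25 listed definitive endoderm genes, 24 of 25 primitive streak genes and 14 of 15 epiblast genes, so that peak presence does not separate these cell states.

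OTX2 is a homeodomain protein of the orthodenticle family that recognizes a short DNA word ending in GATTA and is best known for specifying the anterior of the embryo, first in the visceral and definitive endoderm and then in the head and forebrain. In ATAC-seq a transposase inserts adapters where DNA is not covered by nucleosomes, and many of the open regions far from genes are enhancers, at which transcription factors bind and act on distant promoters. SOX, GATA and FOX proteins are the main DNA-binding regulators of endoderm, each with its own short consensus.

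The first set of sequences shows what the DMSO-only intergenic peaks with the strongest statistical support look like at base level. It holds the 5 peaks among the 10 smallest adjusted p-values that contain the OTX consensus GGATTA on either strand. Each is 100 bases of the plus strand of GRCm38.p6, the assembly of mm10, written 5′ to 3′, and the capitals mark the OTX consensus (TAATCC is its reverse complement). The regions are chr4:136861817-136861916, chr5:75377746-75377845, chr13:54296372-54296471, chr14:27005929-27006028 and chr8:91856035-91856134, in the order of the lines, named by the gene the authors assigned to the peak.
C1qb: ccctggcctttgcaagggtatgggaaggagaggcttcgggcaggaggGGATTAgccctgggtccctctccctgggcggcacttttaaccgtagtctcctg
Gm22084: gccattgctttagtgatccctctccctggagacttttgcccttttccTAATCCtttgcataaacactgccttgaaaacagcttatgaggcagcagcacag
Gm16578: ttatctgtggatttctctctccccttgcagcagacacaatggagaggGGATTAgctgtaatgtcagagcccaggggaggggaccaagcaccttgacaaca
Hesx1: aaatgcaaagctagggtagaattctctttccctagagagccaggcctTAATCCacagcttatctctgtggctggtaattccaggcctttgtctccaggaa
Gm28511: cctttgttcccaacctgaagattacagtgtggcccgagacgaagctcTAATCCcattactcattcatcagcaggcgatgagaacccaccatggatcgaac

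The next pair is shown because these peaks, also among the 10, hold no GGATTA, and it gives 100 bases at their midpoints, chr17:83123976-83124075 and chr13:106236743-106236842. Capitals here mark the GATA consensus AGATAA or its reverse complement TTATCT, the one word of SOX, GATA and FOX found in these windows.
Gm29052: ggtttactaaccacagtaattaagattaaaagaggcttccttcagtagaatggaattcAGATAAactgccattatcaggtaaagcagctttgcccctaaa
Olfr717-ps1: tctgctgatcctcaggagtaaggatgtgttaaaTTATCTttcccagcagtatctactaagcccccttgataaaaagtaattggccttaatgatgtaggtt

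The signal of these peaks was low. In the authors' deposited table the median mean normalized count was 4.05 (quartiles 2.86 and 5.90), against 10.4 for intergenic peaks of both lists and 7.33 for all peaks, and 64.5% lay under 5 normalized counts. The other classes found in 1 list were as weak, with medians of 4.29 for dTAG13-only peaks (63.4% under 5) and 4.03 for intronic peaks of the DMSO list alone (65.4% under 5). Their median length was 96 bases (quartiles 77.0 and 142.0), against 168 bases for both lists and 82 for dTAG13-only peaks. In the authors' deposited table the median log2 fold change of dTAG13 over DMSO was -1.40 (quartiles -2.41 and -0.68) with a median standard error (SE) of 1.04, against 0.09 for both lists, 1.56 for dTAG13-only peaks and -0.18 for all peaks. Positive values occurred in 593 peaks (5.51%). In bulk material, less signal per cell and fewer cells with an open site cannot be told apart.

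Group levels were worked out from each peak's mean normalized count and fold change. The median implied level was 5.55 normalized counts per library with DMSO and 2.35 with dTAG13. A floor of 3 normalized counts per library was used for folds, and the dTAG13 level was at or under it in 6450 peaks (59.9%), of which 644 were under it with DMSO too. The plot of fold change against signal shows parallel bands, because low dTAG13 signal takes few values. The lowest band, with an implied dTAG13 level of 0.197 to 0.215, held 1124 peaks (10.4%), and the next value above it was 0.41. Fitted fold changes in these bands are fixed by the DMSO level and are not estimates of a residual dTAG13 signal.

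**Figure D1:**
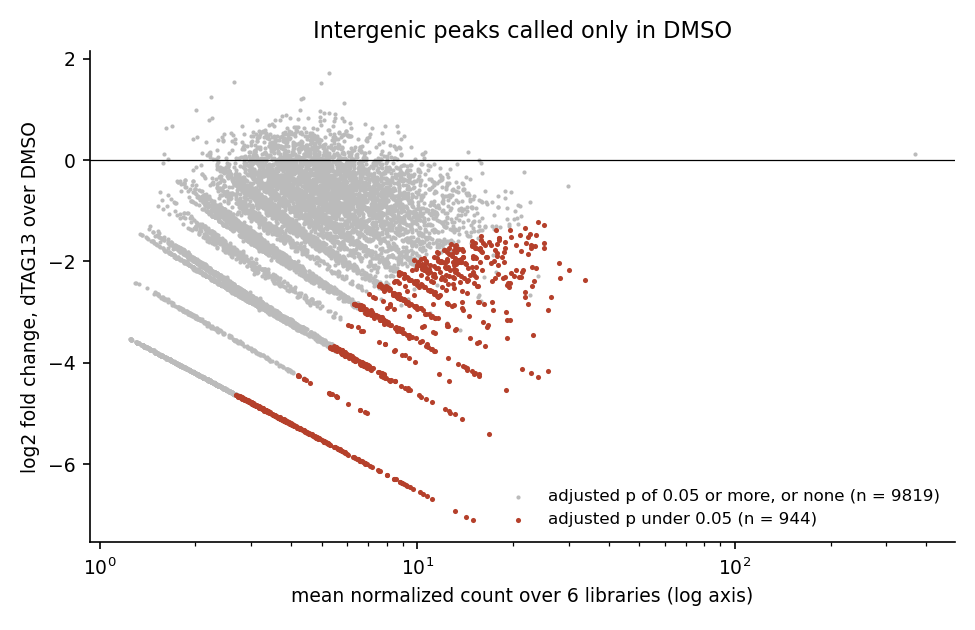
Each point is 1 of the 10763 DMSO-only intergenic peaks, placed by its mean normalized count over 6 libraries (log axis) and its log2 fold change of dTAG13 over DMSO in the authors' deposited table, with the 944 peaks of adjusted p under 0.05 in red. Called peaks lie below 0 and reach down to -7.11, the lowest band holds peaks with almost no dTAG13 signal, and 1 uncalled point far to the right has a mean of 370.3.

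At an adjusted p under 0.05 in the authors' deposited table, 944 DMSO-only intergenic peaks were called lower with dTAG13 and 0 higher. These are 9.27% of the 10178 with an adjusted p, and the background over all peaks was 3.79% called lower (2622 of 69128). Since the lists and the calls come from the same libraries, nothing is read from the difference in these shares. At an unadjusted p under 0.05, 3086 were lower. All 944 are in the authors' list of DMSO-enriched peaks, and their median implied levels were 13.7 normalized counts with DMSO and 1.50 with dTAG13. Calls were commoner among strong peaks, with 26.99% called in the fifth of the peaks with the highest mean normalized counts and 0 of 2153 in the fifth with the lowest. Peaks of the lowest counts were given no adjusted p and could not be called, so this 0 is in part set in advance.

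At the edge of the rule, the 5 peaks nearest to a dTAG13 list peak were 51 to 56 bases away from it, with mean normalized counts of 2.43 to 5.18 and log2 fold changes of -2.35 to -0.63 in the authors' deposited table. On the other side, no intergenic peak of both lists overlapped a dTAG13 peak by 5 bases or less. The median gap to the nearest dTAG13 list peak was 19162 bases, and 765 peaks (7.11%) had one within 1000 bases.

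Among the individual peaks, the smallest adjusted p was at chromosome 17, 83123813 to 83124239, assigned to the predicted gene Gm29052. Its implied level was 48.7 normalized counts with DMSO and 2.73 with dTAG13, so that it was at least 16.2-fold higher in DMSO. The authors' deposited table lists its log2 fold change as -4.16 with an SE of 0.61 and an adjusted p of 8.39e-08. It is one of the peaks shown above without the OTX consensus, and the nearest coding start site, 91266 bases away, is that of Pkdcc, which encodes a secretory pathway kinase.

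The peak assigned to Hesx1, a homeobox repressor needed for the forebrain and pituitary, lay 5756 bases from the Hesx1 start site (chromosome 14, 27005939 to 27006297). Its implied level was 45.7 normalized counts with DMSO and 5.89 with dTAG13, a ratio of 7.76. The capitals in the Hesx1 line above lie 139 bases from its midpoint. A second DMSO-only peak of Hesx1, 6466 bases from the start site, had implied levels of 8.49 and 1.52 and was not called (in the authors' deposited table, log2 fold change -2.49, SE 1.0004 and adjusted p 0.122).

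The other 8 of the 10 peaks with the smallest adjusted p had implied levels of 29.6 to 56.5 normalized counts with DMSO and 0.215 to 10.9 with dTAG13. The peak assigned to C1qb, a subunit of complement C1q, fell from an implied 45.6 to 2.35 normalized counts and was at least 15.2-fold higher in DMSO. The peak assigned to Gm22084 kept the most dTAG13 signal of the 10, with 10.9 normalized counts against 56.5 in DMSO. The peak assigned to Gm16578 had 43.1 in DMSO and 2.34 in dTAG13, and that assigned to Olfr717-ps1 had 42.4 and 3.90. The levels were 40.4 and 2.31 at Gm1000, 75084 bases from the start site of Gsc, the organizer homeobox gene. At Gm4825 and Htatip2 they were 45.7 and 7.06, and 35.3 and 3.10. The peak assigned to Gm28511, 54059 bases from the start site of the Iroquois homeobox gene Irx3, had 29.6 in DMSO and an implied 0.215 in dTAG13, which makes it at least 9.88-fold higher in DMSO. None of the 10 had a soft-masked base in the 200 bases around the midpoint, that is, a base the assembly marks as repetitive.

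The strongest DMSO-only peak differs from the rest. The peak assigned to the pseudogene Olfr1274-ps (chromosome 2, 90395132 to 90395192) was 61 bases long, 61.5% of the 200 bases around its midpoint were soft-masked, and its implied levels were 355.6 with DMSO and 385.0 with dTAG13 (in the authors' deposited table, log2 fold change 0.11, SE 0.10 and adjusted p 0.562). It was therefore in the DMSO list alone with no lower dTAG13 signal. The next in mean normalized count were the peaks assigned to Gm22084 (33.7), Gm38093 (30.01), Rybp (29.7) and Robo1 (28.1). The Rybp peak had implied levels of 35.0 and 24.5 and was not called, whereas the Robo1 peak, assigned to a receptor of SLIT guidance cues, had 46.9 and 9.39 and was called (adjusted p 2.34e-05 in the authors' deposited table).

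The 5 most negative log2 fold changes, -7.11 to -6.64 in the authors' deposited table, belonged to the peaks assigned to Gm28511, Ankrd46, Gm13466, Ttc6 and Calca. All 5 were in the lowest band, so their size follows from DMSO levels of 21.2 to 29.6 normalized counts. Against the floor they were at least 7.08-fold (Calca) to at least 9.88-fold (Gm28511) higher in DMSO. The Calca peak (chromosome 7, 114649942 to 114650179) held 1 OTX word within 100 bases of the midpoint, and lay 13704 bases from the start site of Calca, the calcitonin gene.

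**Figure D2:**
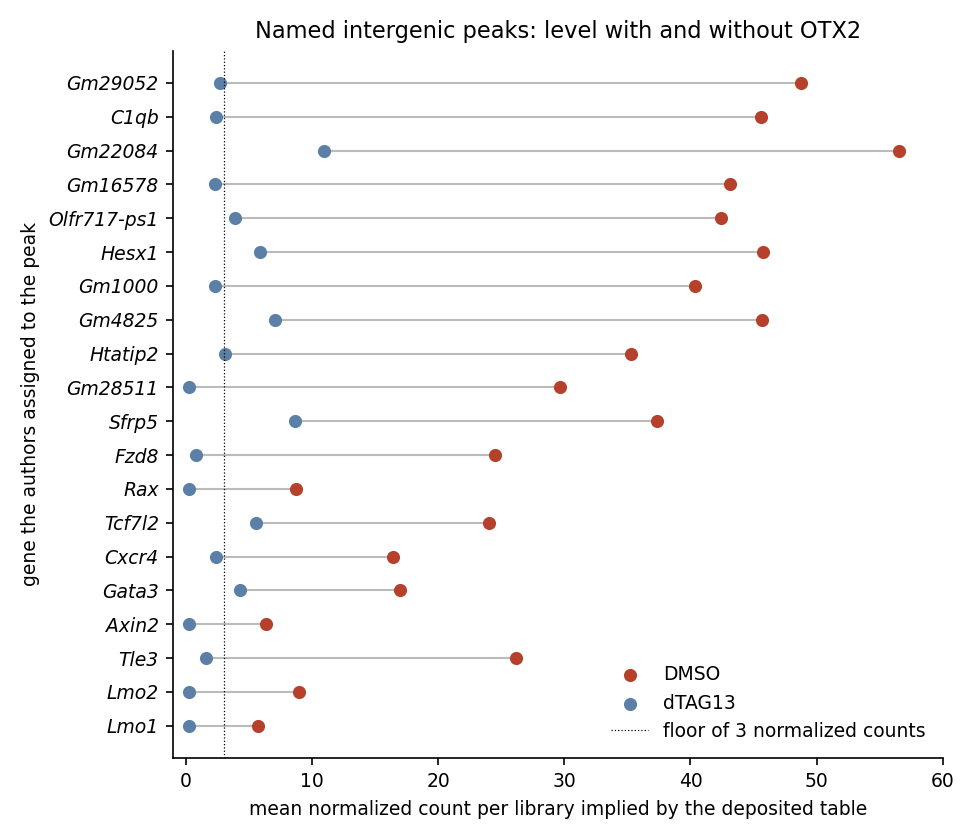
Implied mean normalized count per library (horizontal axis) with DMSO (red) and dTAG13 (blue) for the 10 peaks with the smallest adjusted p and for called peaks of listed genes, 1 line per peak. No error bars are drawn because values per library are not used here. Every red point lies to the right of its blue point, which selection of called peaks ensures, and the dotted line is the floor of 3 normalized counts.

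Gene lists were used to describe which developmental genes have such peaks by the authors' gene assignment, which takes neighbouring genes and not targets. Of 15 DMSO-only peaks at 25 genes of the anterior and head organizer, all 15 had log2 fold changes below 0 in the authors' deposited table (median -1.35) and 4 were called lower. Besides Hesx1 these were at Sfrp5, Fzd8 and Rax. Sfrp5, a secreted Wnt antagonist of foregut and anterior endoderm, had a peak at chromosome 19, 42215206 to 42215505, 13104 bases from its start site. It had implied levels of 37.4 and 8.62 normalized counts and was called lower, with log2 fold change -2.12, SE 0.44 and adjusted p 3.88e-04 by the authors' deposited table. The Fzd8 peak (a Wnt receptor gene) had 24.5 and 0.77, at least 8.17-fold higher in DMSO, and contained 1 GGATTA. The peak of Rax, a homeobox gene of eye and forebrain, had 8.74 and 0.21, so this call rested on little signal with dTAG13 in the lowest band. Peaks at Nog, a BMP antagonist (implied levels 25.01 and 9.81, adjusted p 0.0657), and Gsc (4.02 and 1.93, adjusted p 0.676) did not pass the threshold in the authors' deposited table.

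At 25 definitive endoderm genes there were 20 DMSO-only peaks, all with log2 fold changes below 0 (median -1.72) and 4 called lower in the authors' deposited table. The called peak of Tcf7l2, a DNA-binding effector of Wnt signalling (chromosome 19, 55732656 to 55732880), had implied levels of 24.03 and 5.59. Cxcr4, a chemokine receptor gene used as a surface marker of definitive endoderm, had 4 DMSO-only peaks. Of these the one 3325 bases from its start site (chromosome 1, 128595548 to 128595688) was called, with implied levels of 16.4 and 2.36. The largest of the 4 by signal had 27.1 and 7.36 but an SE of 1.07, and was not called (adjusted p 0.325 in the authors' deposited table). Gata3 had 2 called peaks, with 17.01 and 4.25 normalized counts at 45884 bases and 11.8 and 1.55 at 20847 bases from its start site. The 5 DMSO-only peaks of Gata4, a zinc-finger factor of endoderm and heart, were not called, and 3 of them contained GGATTA within 100 bases of the midpoint. The Gata4 peak nearest the threshold had 22.4 and 8.52 (adjusted p 0.0798 in the authors' deposited table).

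For 25 primitive streak and mesoderm genes, 13 DMSO-only peaks had a median log2 fold change of -1.47 in the authors' deposited table, with 11 below 0 and 1 called. The called one, at Axin2, a feedback inhibitor of Wnt signalling, rested on little signal, with implied levels of 6.36 and 0.21. The peaks at Eomes (13.7 and 15.3 normalized counts) and Fgf8 (4.64 and 5.54) were the 2 with fold changes above 0, and each had a GGATTA. The 3 peaks of T had log2 fold changes of -0.70 to -0.14 in the authors' deposited table. At 15 epiblast and pluripotency genes, 7 DMSO-only peaks all had fold changes below 0 in the authors' deposited table, with a median log2 value of -1.53. At 14 genes of LIM-domain and TLE cofactors, which bind homeodomain proteins, 12 of 15 DMSO-only peaks had an adjusted p and 3 were called. They were at Tle3, a Groucho corepressor gene (26.2 and 1.56), and at the LIM-only adaptor genes Lmo2 (8.93 and 0.21) and Lmo1 (5.75 and 0.21). Like the call at Axin2, those at Lmo2 and Lmo1 rested on little signal, with dTAG13 in the lowest band. The median log2 fold change over the cofactor peaks was -2.03 in the authors' deposited table. The background of 3.79% called applies to each of these counts, and the rule used the same contrast.

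Over all genes, 6727 had a DMSO-only intergenic peak and 839 a called one, of which 84 had at least 2 and 16 at least 3. Gm24070 had the most called peaks (6 of 11 DMSO-only peaks), followed by Gm24795 (4 of 9) and Slc12a2 (4 of 7), which encodes a sodium, potassium and chloride cotransporter. Another 13 genes had 3 each. Of these, n-R5s92, 2610028E06Rik, 2610204G07Rik, Nxpe2, Ddx52 and Gm16391 had the most DMSO-only peaks (7 to 13), whereas at Gm15544, RP24-553L18.1, Snx10 and Gm23503 all 3 DMSO-only peaks were called. Most of these names belong to predicted or noncoding genes. Called peaks with gaps of at most 100 kb formed 5 stretches of 4 or more. The longest, 135.96 kb on chromosome 12 from 77640314 to 77776273, held 5 called peaks among 9 DMSO-only peaks, with no coding start site within 200 kb. The stretch on chromosome 17 from 83114319 to 83248699, near Pkdcc and Eml4, held 5 called among 15 peaks of any kind, and the peak of Gm29052 lies in it. Stretches with 4 called peaks lay on chromosome 16 (39512908 to 39559227, assigned to Gm24795), on chromosome 4 (29040034 to 29143701, near the ephrin receptor gene Epha7) and beside Slc12a2, where the 4 peaks had implied DMSO levels of 5.69 to 28.5 and dTAG13 levels of 0.21 to 3.996. No peak in the 5 stretches was called higher, and over all peaks 1016 of the 69128 with an adjusted p were. The stretches were built from peaks called lower, so nothing is read from this.

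The DMSO-only peaks lay a median of 19035 bases from the nearest start site of any gene and 53320 bases from the nearest coding one, against 16154 and 38949 bases for intergenic peaks of both lists. For dTAG13-only peaks the medians were 18549 and 49528 bases. The called DMSO-only peaks were farther out, with a median of 71554.5 bases to a coding start site, and 42.4% of them lay over 100 kb away, against 34.9% of those not called. By chromosome, DMSO-only peaks made up 45.8% to 54.7% of the intergenic peaks on each chromosome other than Y, with the lowest share on chromosome 12 and the highest on X.

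The sequence around the midpoint was compared between classes by the share of peaks holding a short consensus in 200 bases, 100 on each side, on both strands. Shares carry Wilson 95% intervals, which cover counting error over peaks only. The OTX consensus GGATTA was present in 1761 DMSO-only intergenic peaks (16.4%, interval 15.7 to 17.1%). It was present in 6.96% (6.43 to 7.52%) of intergenic peaks of both lists and in 4.01% (3.35 to 4.79%) of dTAG13-only peaks, and these intervals do not overlap. Intronic peaks of the DMSO list alone had 16.7% (15.9 to 17.4%), which overlaps the intergenic interval. Among called DMSO-only peaks the share was 35.2% (32.2 to 38.3%), so most called peaks do not hold the exact word.

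As a control of equal base composition, the reversed letters ATTAGG were present in 10.8% (10.2 to 11.4%) of DMSO-only peaks, 8.05% of peaks of both lists and 7.07% of dTAG13-only peaks. Among called DMSO-only peaks the control was also more frequent, at 16.2% (14.0 to 18.7%). DMSO-only peaks had a lower GC content, with a median of 49% against 51.5% in both lists and 50% in dTAG13-only peaks. Within each of 5 GC classes of intergenic peaks, however, the OTX share was above that of both other classes. It was 20.2% against 9.64% and 6.95% in the class of lowest GC, and 9.60% against 4.12% and 1.59% in the class of highest GC. The share of the reversed letters was also above that of both other classes in each GC class, by smaller margins. It was 14.2% against 13.9% and 9.83% at the lowest GC, and 6.22% against 4.92% and 4.10% at the highest.

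No word had been singled out in a further count, over all 2080 different 6-letter words with a word and its reverse complement taken as one. Of the 1936 found in at least 1% of both comparison classes, GGATTA had the highest ratio of the DMSO-only share to that of both lists (2.35) and also the highest to that of dTAG13-only peaks (4.08). The next words by the first ratio, GATTAA (2.05), GATTAC (1.85) and AGATTA (1.85), share the core GATTA or ATTA with it. The 20 words with the lowest ratio all contain CG, and 21.3% of DMSO-only peaks had no CG in the 200 bases, against 15.4% in both lists. Just before GGATTA the base was A at 40.9% and G at 35.0% of the 1935 copies in DMSO-only peaks, and C at 3.00%. In peaks of both lists the shares at this base were close to these, with A at 38.7%, G at 33.9% and C at 2.66%.

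**Figure D3:**
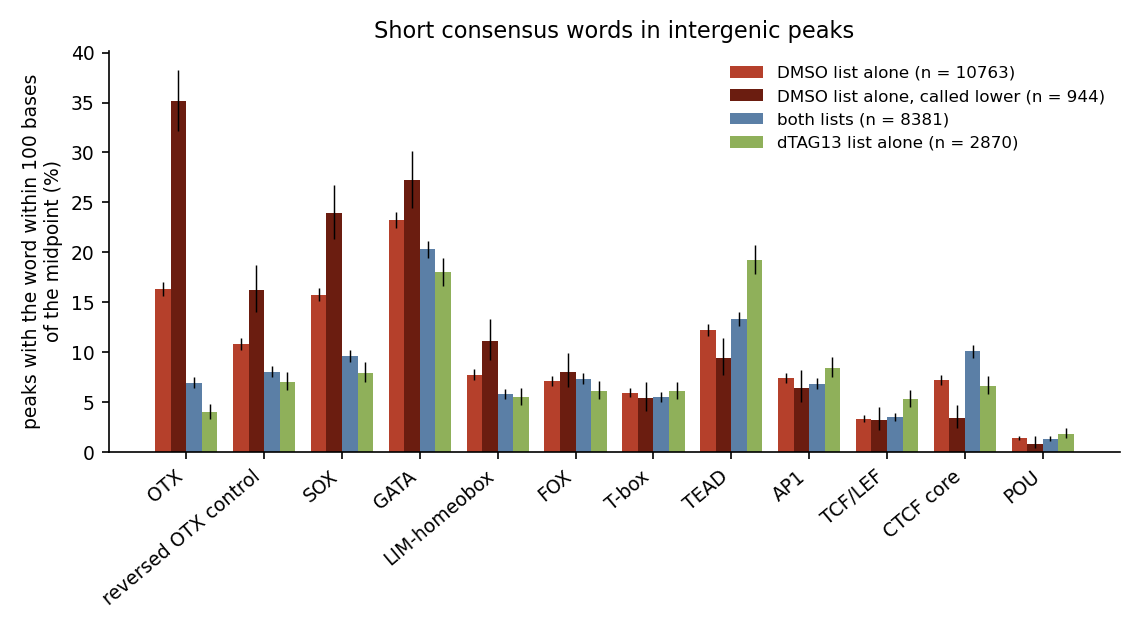
Share of intergenic peaks (vertical axis, percent) with each consensus word within 100 bases of the midpoint, for DMSO-only peaks, the called ones among them, peaks of both lists and dTAG13-only peaks, with Wilson 95% intervals as bars. OTX stands at 16.4% and 35.2% in the DMSO-only classes against 6.96% and 4.01% in the other 2, whereas TEAD is highest in the dTAG13-only class at 19.3%.

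The OTX word was concentrated in the middle of the peaks. In the 50-base bins on either side of the midpoint, 5.19% and 5.18% of DMSO-only peaks had a copy, and 12.1% and 12.2% of the called ones, against 1.99% and 2.22% at 450 to 500 bases on the side of lower coordinates. In peaks of both lists the share was 1.98% and 1.81% beside the midpoint and 1.98% at 450 to 500 bases, which is flat. In dTAG13-only peaks it was lower in the middle (1.05% and 0.94%) than at 450 to 500 bases (1.74%). Copies in the 5 sequences shown above lay 41 to 152 bases from the midpoint, and these peaks are 342 to 642 bases long.

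Fold changes went with the number of OTX words. In the authors' deposited table the median log2 fold change was -1.28 over 9002 DMSO-only peaks without the word, -2.08 over 1582 with 1, -2.70 over 164 with 2 and -3.98 over 15 with 3 or more. The shares called lower in these classes were 6.80%, 17.3%, 31.7% and 40.0%, beside a background of 3.79% over all peaks. The background counts only peaks with an adjusted p, whereas the shares in this paragraph are over all peaks of a class. Mean normalized counts were lower with more copies, with medians of 4.06, 4.002, 3.77 and 2.97. Weak peaks also had the most negative fold changes, with a median of -2.35 in the fifth of the peaks with the lowest signal against -1.38 to -1.04 in the other 4, so signal moved along with copy number. In the fifth of the peaks with the highest signal, 48.7% of those with the word and 21.6% of those without were called. The median log2 fold change with the word was below that without it in each of the 5 signal classes. In intergenic peaks of both lists the medians were 0.12 with no copy, -0.19 with 1 and -0.43 with 2 in the authors' deposited table. Intronic peaks of the DMSO list alone had the same pattern, so it was not particular to intergenic peaks. With no copy, 1, 2 and 3 or more, their medians in that table were -1.31, -2.22, -3.11 and -3.61. The shares called lower were 7.28%, 19.1%, 35.2% and 45.5%, the last over 11 peaks. The copy number was not used by the rule, but the fold changes were, and no test was made.

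**Figure D4:**
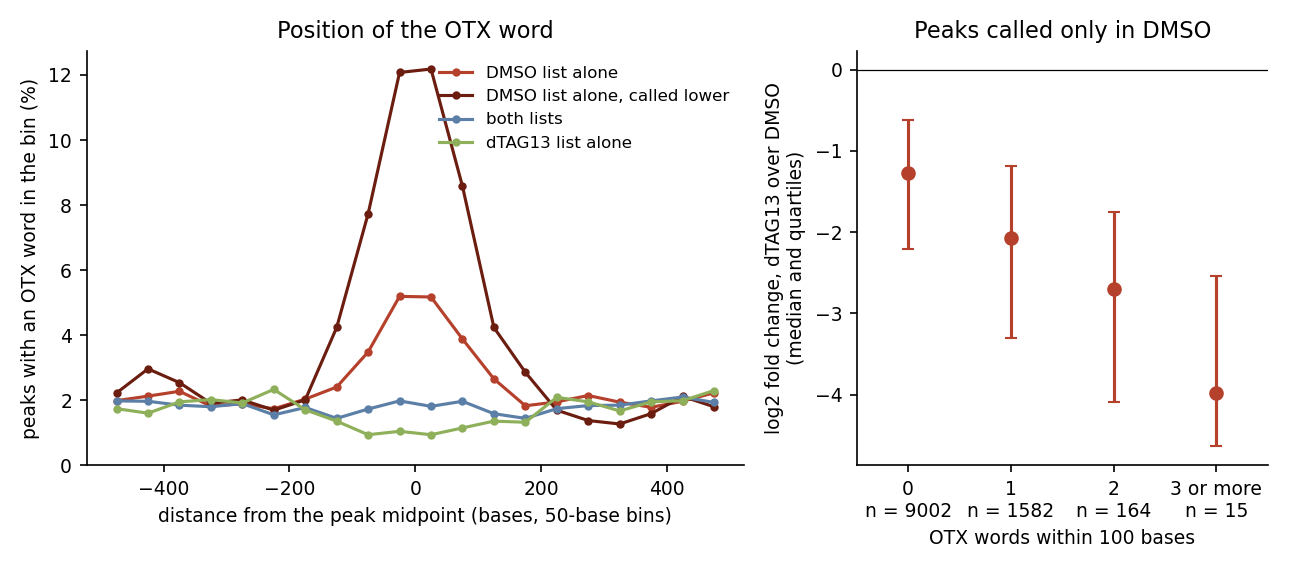
Left, share of peaks with an OTX word in each 50-base bin (vertical axis, percent) against distance from the midpoint, by class; the called DMSO-only peaks reach 12.2% beside the midpoint and peaks of both lists stay flat. Right, log2 fold change of dTAG13 over DMSO (median with quartiles) of DMSO-only peaks by number of OTX words within 100 bases, from -1.28 with none to -3.98 with 3 or more.

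Pairs of the word had no single arrangement. The 179 DMSO-only peaks with at least 2 copies held 195 neighbouring pairs, with a median distance of 42 bases, and 53 pairs were within 20 bases. In 115 pairs both copies were on the same strand, in 42 GGATTA came before TAATCC and in 38 after it. The palindromic site of an OTX dimer, TAATC and GATTA with 1 base between, was found in 5 DMSO-only peaks.

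Other consensus words differed less. The SOX word AACAAT was present in 15.8% (15.1 to 16.5%) of DMSO-only peaks, 9.61% (8.99 to 10.3%) of peaks of both lists and 7.98% (7.04 to 9.03%) of dTAG13-only peaks. The GATA word AGATAA was present in 23.2% (22.5 to 24.1%), 20.3% (19.4 to 21.2%) and 18.01% (16.7 to 19.5%), and the LIM-homeobox word TAATTA in 7.77% (7.28 to 8.29%), 5.79% (5.31 to 6.31%) and 5.54% (4.76 to 6.44%). Within the 5 GC classes, however, the GATA share of DMSO-only peaks was not steadily above that of both lists. The shares were 35.2% against 36.4% at the lowest GC, 20.6% against 19.9% in the middle class and 8.22% against 8.52% at the highest. LIM-homeobox was not compared by GC class. Intervals for the FOX word TGTTTAC overlapped between DMSO-only peaks (7.14%, 6.66 to 7.64%) and both lists (7.36%, 6.82 to 7.94%). In each of the 5 GC classes, though, the FOX share was lower in DMSO-only peaks than in both lists. It was 13.3% against 17.4% at the lowest GC and 2.35% against 2.86% at the highest. The TEAD word GGAATG was less frequent in DMSO-only peaks (12.2%, 11.6 to 12.9%) than in dTAG13-only peaks (19.3%, 17.9 to 20.8%). So was the TCF/LEF word CTTTGAT (3.37%, 3.05 to 3.73%, against 5.33%, 4.57 to 6.21%). In both lists TEAD stood at 13.3% (12.6 to 14.0%) and TCF/LEF at 3.52% (3.15 to 3.94%). These intervals overlap those of DMSO-only peaks. The CTCF core AGGGGGC was present in 7.20% (6.73 to 7.70%) of DMSO-only peaks, 3.39% (2.41 to 4.75%) of the called ones and 10.1% (9.47 to 10.8%) of peaks of both lists. The T-box word AGGTGTG (5.93%), the AP1 word TGANTCA (7.45%) and the POU word ATGCAAAT (1.40%) had intervals that overlapped those of both lists. In intronic peaks of the DMSO list alone, SOX stood at 13.5% (12.9 to 14.3%), GATA at 22.8%, LIM-homeobox at 7.37% and the CTCF core at 7.51%. The differences from both lists in these words were thus seen in introns too. TEAD stood at 11.2% and TCF/LEF at 3.05% there, also below dTAG13-only intergenic peaks.

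Within the DMSO-only peaks, the T-box word was more frequent beside OTX and the other words were not beyond their intervals. GATA was present in 25.6% (23.6 to 27.7%) of the peaks with an OTX word and 22.8% (21.9 to 23.7%) of those without, with intervals that overlap, and T-box in 7.72% (6.57 to 9.06%) and 5.58% (5.12 to 6.07%). SOX was present in 14.3% (12.7 to 16.0%) with OTX and 16.1% (15.3 to 16.9%) without. The CTCF core was less frequent with OTX, at 4.202% (3.36 to 5.24%) against 7.79% (7.25 to 8.36%).

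Part of the SOX share came from copies of the same DNA. Intergenic peaks were joined into families when their 200 bases shared an identical stretch of 40 bases, in either orientation, a rule chosen after the data had been seen, which gave 245 families holding 837 DMSO-only peaks (7.78%), 666 of both lists (7.95%) and 139 dTAG13-only peaks (4.84%). Of these families 3 were large, and the fourth held 47 peaks. Family members are repeat copies that share descent and are not independent sites. Wilson intervals given for family shares treat the copies as independent and may be too narrow. How reads that map to several places were treated is not given in the sources used here, and its part in these results was not tested.

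One DMSO-only peak of each large family, the one with the smallest p, is shown to let the families be told apart. They lie at chr2:45911158-45911257, chr11:51128203-51128302 and chr5:16968841-16968940, 100 bases of the plus strand each, with capitals for the SOX word AACAAT or its reverse complement ATTGTT in the first and the third, and for the TEAD, GATA and FOX words in the second. The copy shown from the second family also holds GGATTA, here in small letters, as did 13 (11.9%) of the DMSO-only peaks of that family.
The first family, Gm13466: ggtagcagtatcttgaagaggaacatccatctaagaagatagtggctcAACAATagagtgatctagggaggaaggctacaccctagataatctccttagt
The second family, Olfr1374-ps1: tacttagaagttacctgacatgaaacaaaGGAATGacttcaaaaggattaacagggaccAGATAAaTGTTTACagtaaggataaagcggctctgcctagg
The third family, Gm42855: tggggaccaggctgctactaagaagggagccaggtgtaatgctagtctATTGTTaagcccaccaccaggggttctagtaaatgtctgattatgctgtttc

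The first family held 283 intergenic peaks on 20 chromosomes, and 230 of them (81.3%, Wilson interval 76.3 to 85.4%) were DMSO-only, against 48.9% of all intergenic peaks. Only 2 were dTAG13-only. Of the 230, 214 (93.0%) held the SOX word and 10 (4.35%) the OTX word. Their median log2 fold change was -2.27 (quartiles -3.39 and -1.49) in the authors' deposited table. Of the 230, 41 (17.8%) were called lower and 202 had an adjusted p. The background of 3.79% counts only peaks with an adjusted p, so its denominator differs. The 51 copies in both lists had a higher mean normalized count (median 12.6 against 4.07) and a median log2 fold change of -0.35 in the authors' deposited table, and held the SOX word about as often (96.1%, 86.8 to 98.9%). The copy shown, assigned to Gm13466 (peak at chromosome 2, 45911052 to 45911378), had implied levels of 26.03 with DMSO and 0.214 with dTAG13, at least 8.68-fold higher in DMSO.

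In the second family, 109 of 281 peaks (38.8%, 33.3 to 44.6%) were DMSO-only, a share below that of the first, and 164 were in both lists. FOX words were present in 77.1% (68.3 to 84.0%) of its DMSO-only peaks and GATA words in 84.4% (76.4 to 90.03%), and in 69.5% and 72.6% of its peaks of both lists. The TEAD word was present in 68.8% (59.6 to 76.7%) of its DMSO-only peaks and 33.5% (26.8 to 41.1%) of its peaks of both lists. Words were counted around peak midpoints and the copies were not aligned. Whether the copies differ in sequence or the peaks centre on different parts of them was not tested. The third family had 133 DMSO-only peaks among 212 (62.7%, 56.05 to 68.96%), of which 45.1% held the SOX and 44.4% the LIM-homeobox word, and 28 (21.1%) were called lower, against 15 (13.8%) in the second. An adjusted p was given for 120 DMSO-only peaks of the third family and 98 of the second. The background of 3.79% counts only peaks with an adjusted p, whereas these shares are over all DMSO-only peaks of a family. Across the 3 families, 472 DMSO-only peaks (4.39%) accounted for 84 of the 944 called (8.90%).

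**Figure D5:**
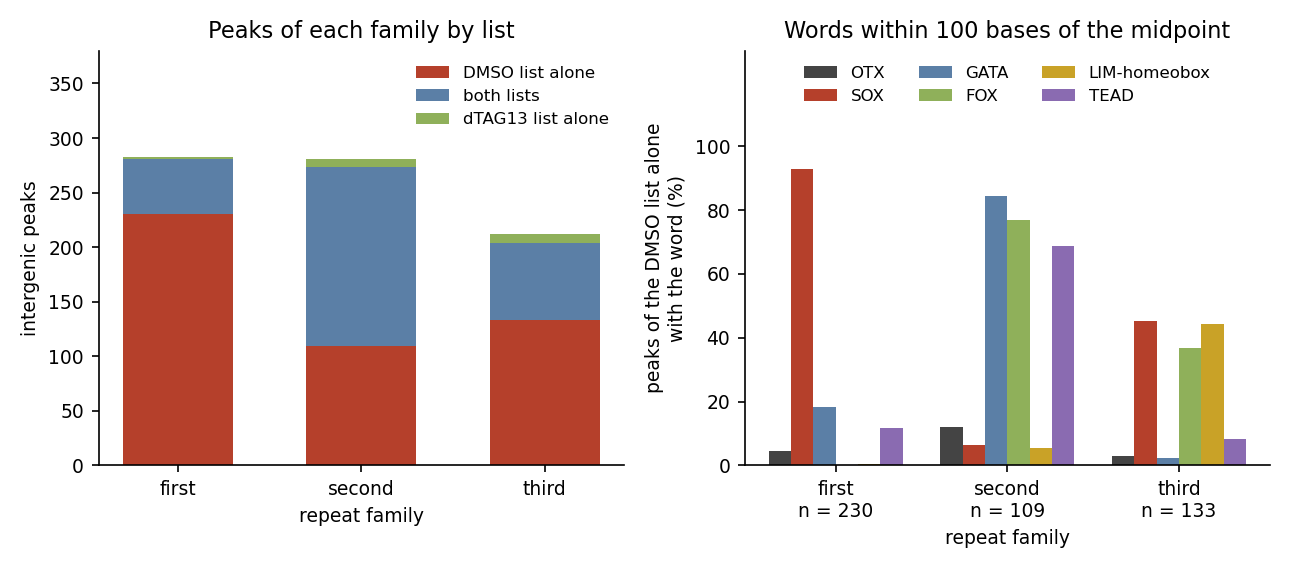
Left, number of intergenic peaks (vertical axis) in each of the 3 largest families of peaks sharing a 40-base stretch, stacked by list: DMSO-only peaks are 230 of 283, 109 of 281 and 133 of 212. Right, percent of the DMSO-only peaks of each family with a consensus word within 100 bases of the midpoint, with SOX at 93.0% in the first, GATA at 84.4% in the second and SOX at 45.1% in the third.

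Outside the 3 families the SOX share of DMSO-only peaks was 13.8% (13.1 to 14.5%) against 8.87% (8.27 to 9.51%) in both lists, and the OTX share was 16.8% (16.1 to 17.6%) against 7.10% (6.56 to 7.68%). Leaving the families out therefore lowered the SOX share and left the OTX share about where it was. Over 50% of the 200 bases were soft-masked in 11.6% of DMSO-only peaks, 8.20% of both lists and 9.69% of dTAG13-only peaks.

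The authors' table marks each called DMSO-only peak as C1 (391 peaks) or C2 (553), and what the marks stand for is not stated in it. C1 peaks had higher mean normalized counts (median 10.3 against 6.30), were longer (232 against 182 bases) and had less negative log2 fold changes (median -2.86 against -4.53) in the authors' deposited table. The dTAG13 level was at or under the floor in 56.8% of C1 and 80.8% of C2 peaks. Outside the 3 families, the OTX word was present in 39.8% (34.6 to 45.1%) of C1 and 36.6% (32.6 to 40.8%) of C2 peaks, and SOX in 19.6% and 19.5%. GATA was less frequent in C1 (18.96%, 15.1 to 23.6%) than in C2 (31.7%, 27.9 to 35.8%), and so was LIM-homeobox (5.81%, 3.75 to 8.90%, against 14.8%, 12.06 to 18.1%). The 3 families held 16.4% of C1 and 3.62% of C2 peaks.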

How the data were processed

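The authors' deposited table gives 1 row per ATAC-seq peak. Its signal is a mean normalized count over the libraries, under DESeq2's column names, per the file headers. The log2 fold change, its SE, the test score and the p-value with its adjusted form were used as the authors deposited them. Per the submitters' processing notes, fastp, Bowtie2, MACS2, featureCounts, HOMER 4.11 and ChIPseeker were used on build mm10; their settings, the read shift and the handling of duplicates are not given in the sources used here. Peak lists were pooled per group, with positions only.

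No library values entered, so no new differential test was run. Group levels were computed from mean and fold change, assuming 3 libraries per group. Sequences came from GRCm38.p6 and start sites from GENCODE. Shares have Wilson 95% intervals. Python 3.11.15, pandas 2.3.3, scipy 1.17.1 and pysam 0.24.0 were used. On simulated data, 400 of 400 overlaps and 200 of 200 planted motifs were recovered. The peaks, gene lists and families were chosen with earlier results of these data known. Peaks named are the 10 with the smallest adjusted p, the 5 with the largest mean, the 5 with the most negative fold change, for each listed gene the called peak with the smallest p (1 is not reported here), and genes with the most called peaks; 3 had over 3, and the 13 tied at 3 were ordered by their number of DMSO-only peaks. The second Gata3 peak, uncalled peaks and genes with every peak called were named after their values were seen.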

Additional observations from a re-analysis of the deposited data

How the results depend on the processing

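The number of DMSO-only intergenic peaks stayed within 1.5 times under the 3 other definitions run (9998 to 13664). The count called lower was 930, 765, 1123, 944 and 836 without the filter on weak peaks, with the median of all peaks or of both lists at 0, with a fold limit, and outside families; an adjusted p under 0.01 gave 322. The OTX share was 9.50% with 50 bases on each side (both lists 3.54%), 26.3% with 250 bases (15.4%), 11.6% in the peak as deposited (6.87%) and 24.9% at a mean normalized count of 10 or more (8.11%). Under each of these settings it was above that of both lists. At that count the median log2 fold change was -1.64. The SOX share outside all families was 13.5% (both lists 8.70%). The first family depends on the stretch required, with 95 DMSO-only peaks at 50 bases, all among the 230, and 361 at 30 bases. No paired analysis was possible because values per library are not used here. Family settings and exclusions were chosen once the data had been seen. Library depth is unknown, and with low mean normalized counts single peaks have wide errors (median SE 1.04).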

Other observations

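The authors' table also carries marks of genes as down or up, set per gene; their origin is not stated in it. Genes marked down held 289 DMSO-only intergenic peaks (2.69%) and genes marked up 178 (1.65%), against 2.12% and 2.23% of intergenic peaks of both lists, 4.53% and 4.05% of intronic peaks of the DMSO list alone, and 2.86% and 3.01% of all peaks. The DMSO-only intergenic peaks were thus below the shares over all peaks. Of the 944 called peaks, 47 (4.98%, against 2.86% of all peaks) were assigned to genes marked down, among them Hesx1, Sfrp5, Rax, Tcf7l2, Gata3, Robo1 and Slc12a2, and 13 (1.38%, against 3.01% of all peaks) to genes marked up, among them Lmo1.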
